A study of Mus musculus with 8 samples.

Results

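AP-1 and the immediate early genes were examined in sorted Myc-CaP tumor cells through 10 genes: *Fos*, *Fosb*, *Fosl1*, *Fosl2*, *Jun*, *Junb*, *Jund*, *Egr1*, *Ier2* and *Ier3*. They were taken by symbol from the gene tables of each sample and make up 10 of the 39089 genes listed. All 10 passed the filter on low counts, which left 13921 genes for testing. AP-1 is a dimeric transcription factor in which a FOS protein pairs with a JUN protein, or JUN proteins pair with each other. Many of its genes are immediate early genes, which growth factors, cytokines and stress switch on within minutes through MAP kinases and serum response factor without new protein synthesis, and several are also induced through NF-κB. Their products then regulate later genes, and their short-lived mRNAs make them a readout of recent signaling in epithelial tumors.

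Myc-CaP is a mouse prostate cancer cell line that carries a *MYC* transgene. The labels name its genotypes Myc-CaP EV, with a control vector (WT below), and Myc-CaP Arid1a KO, which received a guide RNA against *Arid1a*, which belongs to the SWI/SNF family of chromatin remodelers. Tumors grew under the skin of male FVB mice aged 6 weeks, which have an intact immune system. From day 16 the mice were gavaged daily for 2 weeks with JSH-23, an inhibitor of the entry of the NF-κB subunit p65 into the nucleus, or with its vehicle. The paper describes JSH-23 in DMSO that was diluted in corn oil, and names the control groups of these tumors by DMSO. EpCAM+ CD45- cells were sorted from the tumors, and RNA-seq gave 2 samples in each of 4 groups, which are WT vehicle, KO vehicle, WT JSH-23 and KO JSH-23. Each genotype is a derivative of the same line, the inhibitor was given to the whole animal, and the sources do not say whether the 2 samples of a group came from separate tumors, so that p-values measure only the spread between these samples, which may be technical.

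Total counts ran from 16401581 to 21972231 per sample, and the common biological coefficient of variation was 1.61%. The targeted gene, *Arid1a*, averaged 159 CPM (read counts scaled by library depth and TMM factors) in WT vehicle and 104 CPM in KO vehicle, a log2 difference of -0.60 (SE 0.04, adjusted p = 1.39e-23, edgeR), and the difference with JSH-23 was -0.66. Of the markers of the sort, *Epcam* had 0 to 4 counts and was at 0 in 5 of the 8 samples, although the cells were sorted as EpCAM+, and *Cdh1* had 1 to 19 counts. *Krt8*, a keratin of simple epithelia, had 540 to 2308 counts, while the keratin gene *Krt18* had 4 to 18 counts. *Ptprc*, which encodes CD45, had 0 to 10 counts, and the neutrophil marker *Ly6g* had 0 counts in all 8 samples.

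Stretches around the transcription start were read first, because transcription factors that act on immediate early genes can bind there. RefSeq windows on GRCm38.p6, from 250 bases before to 50 bases after a start, were matched for 7 of the 10 genes (*Fos*, *Fosb*, *Fosl2*, *Jun*, *Junb*, *Jund* and *Ier3*). *Fosl1*, *Egr1* and *Ier2* had no window. The 4 windows below belong to *Fos* (chr12:85473640-85473939, plus strand) and *Ier3* (chr17:35821463-35821762, plus strand), which rose in KO tumors with vehicle and fell with JSH-23 in KO tumors, and to *Jun* (chr4:95052173-95052472, minus strand) and *Fosb* (chr7:19309996-19310295, minus strand), which were not called lower with it. Each is written 5′ to 3′ on the strand of the gene, and capitals mark a match to an NF-κB site in *Fos* and *Ier3*, to TGACATCA in *Jun*, and to an NF-κB site followed by GCGNGGGCG in *Fosb*.
Fos: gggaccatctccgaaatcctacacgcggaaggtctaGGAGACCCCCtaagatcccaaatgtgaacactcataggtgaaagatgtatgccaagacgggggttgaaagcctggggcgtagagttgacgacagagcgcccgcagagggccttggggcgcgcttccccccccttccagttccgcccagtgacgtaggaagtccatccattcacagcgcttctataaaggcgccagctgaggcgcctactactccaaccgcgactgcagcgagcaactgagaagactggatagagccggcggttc
Ier3: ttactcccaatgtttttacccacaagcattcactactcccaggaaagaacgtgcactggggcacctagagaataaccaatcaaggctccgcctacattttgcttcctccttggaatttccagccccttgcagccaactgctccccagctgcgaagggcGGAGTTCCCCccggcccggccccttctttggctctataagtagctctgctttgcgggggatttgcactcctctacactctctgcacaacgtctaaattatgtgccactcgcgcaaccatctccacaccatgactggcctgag
Jun: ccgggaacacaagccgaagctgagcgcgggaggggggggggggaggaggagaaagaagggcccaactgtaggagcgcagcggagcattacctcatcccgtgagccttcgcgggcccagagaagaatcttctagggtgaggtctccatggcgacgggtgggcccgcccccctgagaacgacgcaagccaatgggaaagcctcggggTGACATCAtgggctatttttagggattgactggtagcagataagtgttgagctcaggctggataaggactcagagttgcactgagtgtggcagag
Fosb: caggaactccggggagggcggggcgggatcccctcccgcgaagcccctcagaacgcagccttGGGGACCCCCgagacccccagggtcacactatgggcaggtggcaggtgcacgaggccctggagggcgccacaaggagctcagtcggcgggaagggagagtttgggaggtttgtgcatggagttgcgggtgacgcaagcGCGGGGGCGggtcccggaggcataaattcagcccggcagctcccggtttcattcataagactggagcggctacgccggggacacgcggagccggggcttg

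Both strands of every window were searched for 8 motifs. A match to an NF-κB site lay in 4 of the 7 windows, those of *Fos*, *Fosb*, *Fosl2* and *Ier3*, against 8.46% of the 32851 RefSeq windows of the same length. Of the 7 windows, 6 had a GC content above the median of 52.7% for all windows, and 12.1% of the windows at or above that median held such a match. The match began at position -214 from the start in *Fos* and at -92 in *Ier3*, and *Fosl2* held overlapping matches on opposite strands. The EGR site GCGNGGGCG was found in *Fosb* and *Fosl2* and in 5.55% of all windows, overlapping a GC box in each. TGACATCA, a variant of the cAMP response element bound by JUN and ATF2, was found in *Jun* alone, at position -45, and in 3.62% of all windows. The AP-1 site TGANTCA (7.81% of all windows), the cAMP response element TGACGTCA (1.79%) and the CArG box of serum response factor (1.63%) were in none of the 7. The GC box GGGCGG was in 5 of them, against 35.7% of all windows, and overlapped the NF-κB match of *Ier3*. TATAAA was in *Fos*, at position -33, and in *Junb*, at position 1, on the annotated start itself, against 13.6% of all windows. These matches describe letters in a short window. Sites more than 250 bases before a start were not read, and binding was not measured.

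Per length of transcript, the families were made up of different members. On the TPM scale, which divides each count by gene length, *Jund* was the most abundant of the 10 genes, with 1384 and 1462 TPM in the WT vehicle samples. *Junb* had 629 and 616 TPM there, *Ier3* 362 and 363 TPM, *Fosl1* 301 and 305 TPM, *Fosl2* 128 and 127 TPM, *Jun* 89.1 and 88.0 TPM, and *Ier2* 44.1 and 45.8 TPM. *Fos* (7.02 and 7.11 TPM), *Egr1* (4.04 and 4.50 TPM) and *Fosb* (2.53 and 1.51 TPM) were the lowest. In WT vehicle no neighbours in this order overlapped in their 2 samples.

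**Figure D1:**
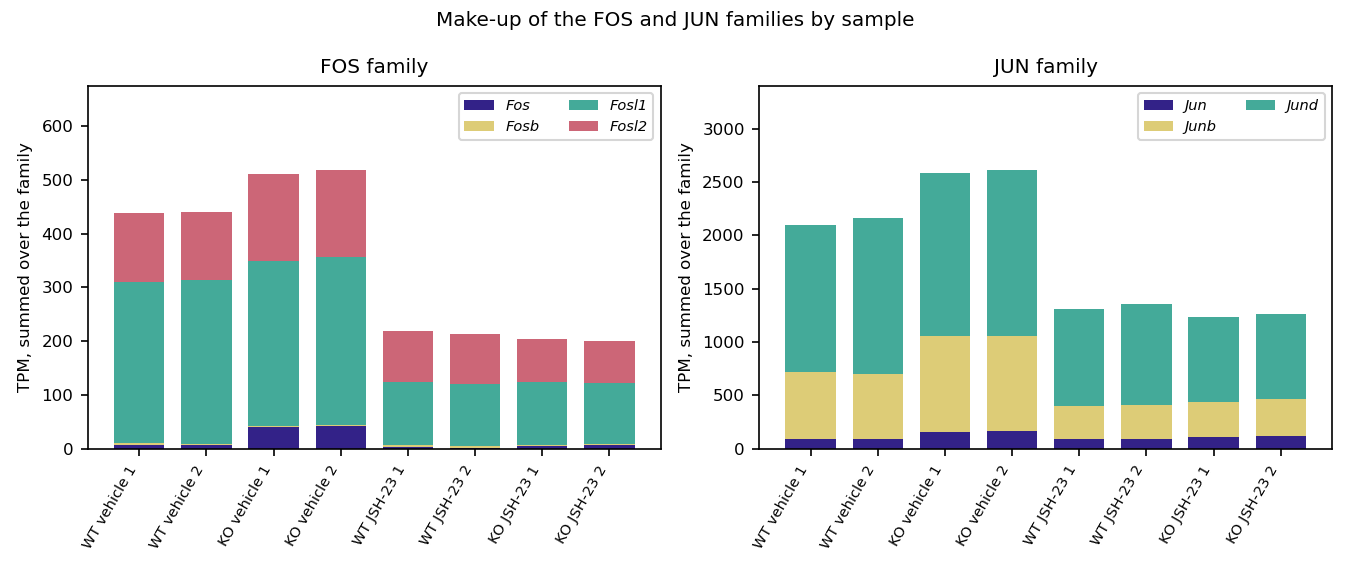
Stacked bars give the summed TPM of the FOS family (left) and the JUN family (right) in each of the 8 samples, with a color per gene. *Fosl1* and *Jund* take the largest share of their family in all 8 samples, and both totals are lower in the 4 JSH-23 samples.

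Summed over the FOS family, the level was 439 and 441 TPM in WT vehicle, 511 and 519 TPM in KO vehicle, 219 and 214 TPM in WT JSH-23, and 203 and 199 TPM in KO JSH-23. *Fosl1* was the largest part of that sum in every sample, from 53.6% to 69.2%. The share of *Fos* was 1.60% and 1.61% in WT vehicle and 7.70% and 8.01% in KO vehicle. The JUN family summed to 2102 and 2166 TPM in WT vehicle, 2586 and 2616 TPM in KO vehicle, 1313 and 1359 TPM in WT JSH-23, and 1238 and 1258 TPM in KO JSH-23. *Jund* made up between 59.1% and 69.8% of it, and the share of *Jun* was lowest in WT vehicle, at 4.06% to 4.24%, and highest in KO JSH-23, at 8.95% to 9.30%. On this scale the median of all tested genes also differed, by -0.20 on the log2 scale for JSH-23 in KO and by -0.16 for KO against WT with JSH-23, so the tests below use counts scaled with TMM factors, where it differed by -0.02 and -0.01.

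The comparisons asked how these genes differ between Arid1a KO and WT tumors, and how each genotype responds to JSH-23. A gene was called at an adjusted p under 0.05 and a change of at least 1.5-fold (edgeR's quasi-likelihood test, Benjamini-Hochberg adjustment over the 13921 genes). With vehicle, 5 of the 10 genes were called higher in KO tumors and 0 lower, where 7.48% of all tested genes were called higher and 5.16% lower. A further 3 had an adjusted p under 0.05 below 1.5-fold. On adjusted p alone, 3476 of the 13921 tested genes were higher and 3556 lower. The median log2 difference of the 10 was 0.68, beside 0.00 over all tested genes. With JSH-23, 2 were called higher in KO tumors and 0 lower (background 3.74% and 4.97%). On adjusted p alone 7 of the 10 passed, where 3229 of the 13921 tested genes were higher and 3307 lower. The median of the 10 was 0.23, beside -0.01 over all tested genes.

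JSH-23 lowered 8 of the 10 genes in KO tumors and raised 0 (16.9% of all genes lower and 9.1% higher), with a median log2 difference of -1.09 beside -0.02 over all genes. In WT tumors it lowered 5 and raised 1 (10.2% lower and 5.55% higher), with a median of -0.67 beside -0.01. Both responses are measured against the vehicle samples that also enter the genotype comparison, and are not independent of it. The difference between the 2 responses was tested as an interaction, the response in KO minus the response in WT, and 3 of the 10 were called lower and 0 higher (5.76% and 3.3% of all genes). In RNA from a bulk of sorted cells, fewer cells expressing a gene and less RNA per cell cannot be told apart.

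**Figure D2:**
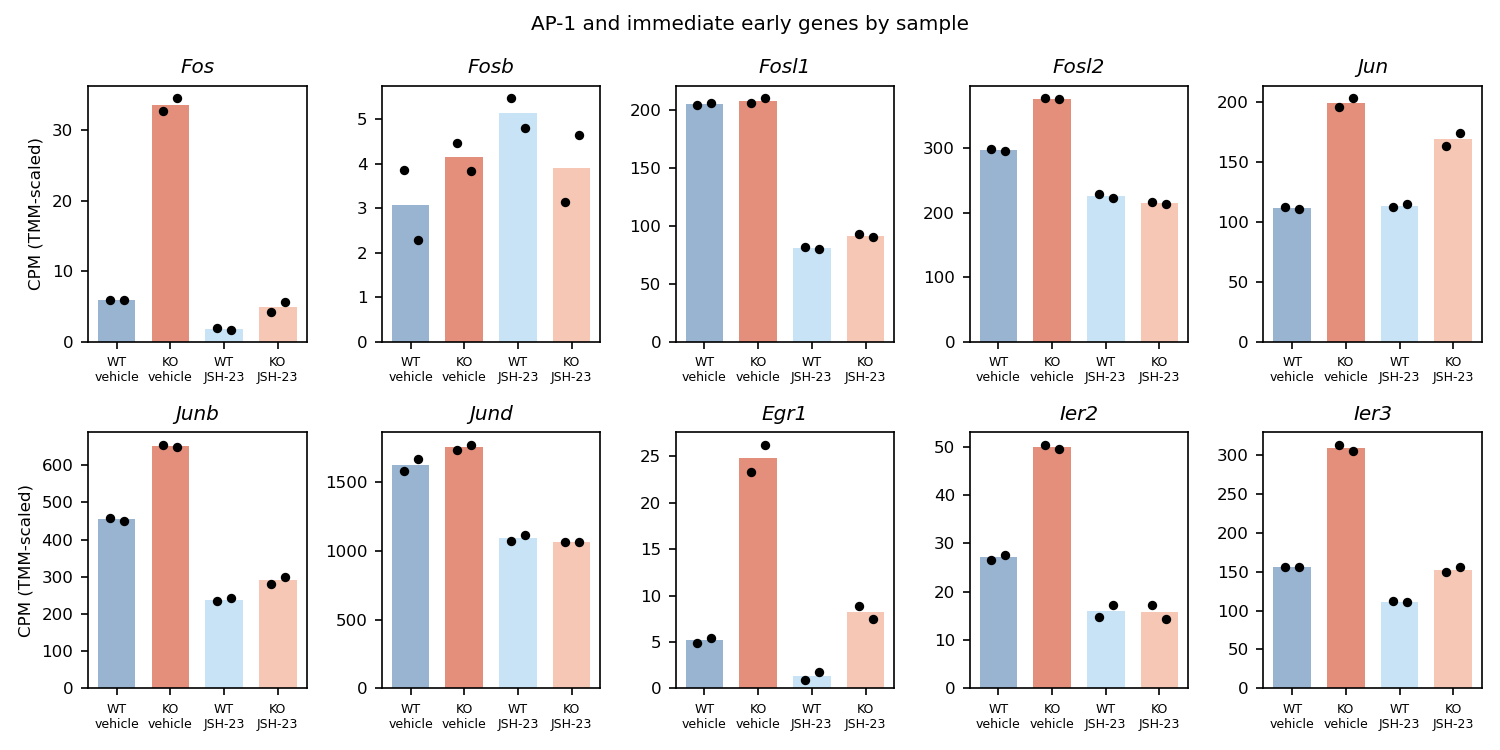
Each panel gives the TMM-scaled CPM of a gene, with a point per sample and a bar for the mean of the 2 samples of a group, on a linear axis that starts at 0. *Fos*, *Egr1*, *Ier2* and *Ier3* are highest in the KO vehicle samples, at 32.8 and 34.6 CPM for *Fos*, while *Fosb* stays under 5.5 CPM.

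*Fos* (chr12:85473890-85477274, GRCm38) is the founding FOS gene and the classic rapid responder. It had 5.88 and 5.94 CPM in WT vehicle, 32.8 and 34.6 CPM in KO vehicle, 1.90 and 1.70 CPM in WT JSH-23, and 4.27 and 5.66 CPM in KO JSH-23. The 4 groups did not overlap, and the KO JSH-23 samples lay just under the WT vehicle samples. The raw counts behind these levels were 99 and 101 in WT vehicle, 593 and 714 in KO vehicle, and 28 to 118 with JSH-23. *Fos* was 5.70-fold higher in KO than in WT with vehicle (log2 2.51, SE 0.11, adjusted p = 1.05e-30) and 2.76-fold higher with JSH-23 (log2 1.47, SE 0.20, adjusted p = 6.86e-09). JSH-23 lowered it 6.73-fold in KO (log2 -2.75, SE 0.11, adjusted p = 1.69e-33) and 3.27-fold in WT (log2 -1.71, SE 0.20, adjusted p = 4.01e-11). The fall was larger in KO by 1.04 on the log2 scale (interaction log2 -1.04, SE 0.26, adjusted p = 0.00077).

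*Fosl1* (chr19:5447698-5455938), which encodes FRA1, an AP-1 subunit without the transactivation domain of FOS, was the most abundant FOS gene per length. It had 204 and 206 CPM in WT vehicle, 206 and 209.9 CPM in KO vehicle, 81.5 and 80.2 CPM in WT JSH-23, and 93.0 and 89.9 CPM in KO JSH-23. The 4 vehicle samples lay between 204 and 209.9 CPM, and the 4 JSH-23 samples were all lower. With vehicle, KO and WT differed by 0.02 on the log2 scale (SE 0.03, adjusted p = 0.557). JSH-23 lowered *Fosl1* 2.28-fold in KO (log2 -1.19, adjusted p = 4.69e-43) and 2.53-fold in WT (log2 -1.34, adjusted p = 7e-44). The KO to WT log2 difference with JSH-23 was 0.18 (adjusted p = 0.000143) and the interaction was 0.15 (adjusted p = 0.00991), and both turned slightly negative with limma on log2(TPM + 1), to -0.01 and -0.04. *Fosl1* shares chr19:5453163-5455938 with *Ccdc85b* on the opposite strand, which averaged 5126.5 counts, and the authors counted by strand.

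*Fosl2* (chr5:32136472-32157840) encodes FRA2, the closest relative of FRA1. It had 298 and 296 CPM in WT vehicle, 378 and 376 CPM in KO vehicle, 229 and 224 CPM in WT JSH-23, and 216 and 214 CPM in KO JSH-23. The groups did not overlap, with KO vehicle the highest and KO JSH-23 the lowest. With vehicle, KO exceeded WT by 1.27-fold (log2 0.34, SE 0.02, adjusted p = 7.8e-21), below the fold threshold. *Fosl2* fell 1.75-fold with JSH-23 in KO (log2 -0.81, adjusted p = 2.89e-41), and its log2 difference in WT was -0.39 (adjusted p = 8.32e-22). The interaction was -0.42 (adjusted p = 1.84e-16). With JSH-23 the KO to WT log2 difference was -0.08 (adjusted p = 0.0126).

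*Fosb* (chr7:19302696-19310118) encodes FOSB and its truncated form ΔFOSB, which were not separated in these gene counts. It was among the lowest of the 10 genes, with 3.86 and 2.29 CPM in WT vehicle, 4.47 and 3.83 CPM in KO vehicle, 5.47 and 4.80 CPM in WT JSH-23, and 3.13 and 4.65 CPM in KO JSH-23, from 39 to 98 counts per sample. The 2 WT vehicle samples differed from each other by more than the means of KO vehicle and KO JSH-23 did. *Fosb* was called higher with JSH-23 in WT (1.67-fold, log2 0.74, SE 0.22, adjusted p = 0.00249), a call that was lost without WT vehicle replicate 2, with a log2 value of 0.42, and with limma on TPM values. Its log2 difference with JSH-23 in KO was -0.07 (SE 0.20, adjusted p = 0.757), and the KO to WT difference was 0.43 with vehicle (adjusted p = 0.0996) and -0.39 with JSH-23 (adjusted p = 0.104). Without WT vehicle replicate 1 the vehicle difference was 0.84 and was called, and without KO JSH-23 replicate 2 the JSH-23 difference was -0.70 and was called. The interaction of -0.82 (SE 0.30, adjusted p = 0.023) was not called with DESeq2, with a coefficient of variation of 10% (BCV of 0.1), with limma on TPM values, or without any of 4 samples (WT vehicle replicate 2, KO vehicle replicate 1, WT JSH-23 replicate 1 and KO JSH-23 replicate 1), where it was between -0.71 and -0.48.

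*Jun* (chr4:95049036-95052222) encodes c-JUN, the partner of FOS that the kinase JNK activates. Its levels were 113 and 111 CPM in WT vehicle, 195 and 203 CPM in KO vehicle, 112 and 115 CPM in WT JSH-23, and 164 and 174 CPM in KO JSH-23. All 4 KO samples lay above all 4 WT samples, and the WT samples overlapped between treatments. *Jun* was 1.78-fold higher in KO with vehicle (log2 0.83, SE 0.03, adjusted p = 7.31e-33). With JSH-23 the KO to WT log2 difference was 0.58 (SE 0.03, adjusted p = 1.14e-23), a 1.49-fold difference just under the threshold, which rose to 0.59 without WT JSH-23 replicate 2 and to 0.63 without KO JSH-23 replicate 1 and was then called. JSH-23 gave log2 differences of -0.24 in KO (SE 0.03, adjusted p = 4.12e-10) and 0.02 in WT (SE 0.04, adjusted p = 0.666), and the latter was -0.02 with limma on log2(TPM + 1). The interaction was -0.26 (adjusted p = 1.17e-05).

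*Junb* (chr8:84976909-84978748) encodes a JUN protein that can restrain c-JUN and responds to cytokines. It had 459 and 449 CPM in WT vehicle, 655 and 648 CPM in KO vehicle, 235 and 242 CPM in WT JSH-23, and 282 and 299 CPM in KO JSH-23. The groups did not overlap, and every JSH-23 sample was lower than every vehicle sample. *Junb* fell 2.24-fold with JSH-23 in KO (log2 -1.17, SE 0.02, adjusted p = 8.87e-53) and 1.91-fold in WT (log2 -0.93, SE 0.02, adjusted p = 6.3e-44). The KO to WT log2 difference was 0.52 with vehicle (1.44-fold, adjusted p = 1.44e-32) and 0.29 with JSH-23 (adjusted p = 9.05e-16), below the fold threshold in both. The interaction was -0.24 (adjusted p = 1.66e-08).

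*Jund* (chr8:70697739-70700616) encodes the most constantly expressed JUN protein. It had 1580.3 and 1666 CPM in WT vehicle, 1737 and 1774 CPM in KO vehicle, 1070.0 and 1116 CPM in WT JSH-23, and 1063 and 1067 CPM in KO JSH-23. The vehicle samples lay above the JSH-23 samples in both genotypes. *Jund* fell 1.65-fold with JSH-23 in KO (log2 -0.72, SE 0.02, adjusted p = 7.69e-48). In WT the difference of -0.57 (SE 0.02, adjusted p = 4.79e-41) was 1.49-fold, just under the threshold, and it was called with at least 10 counts in every sample, with limma on TPM values, without WT vehicle replicate 1 and without WT JSH-23 replicate 2, at -0.59 to -0.61. The KO to WT log2 difference was 0.11 with vehicle (adjusted p = 1.56e-08) and -0.04 with JSH-23 (adjusted p = 0.0724), and the interaction was -0.15 (adjusted p = 2.66e-07).

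**Figure D3:**
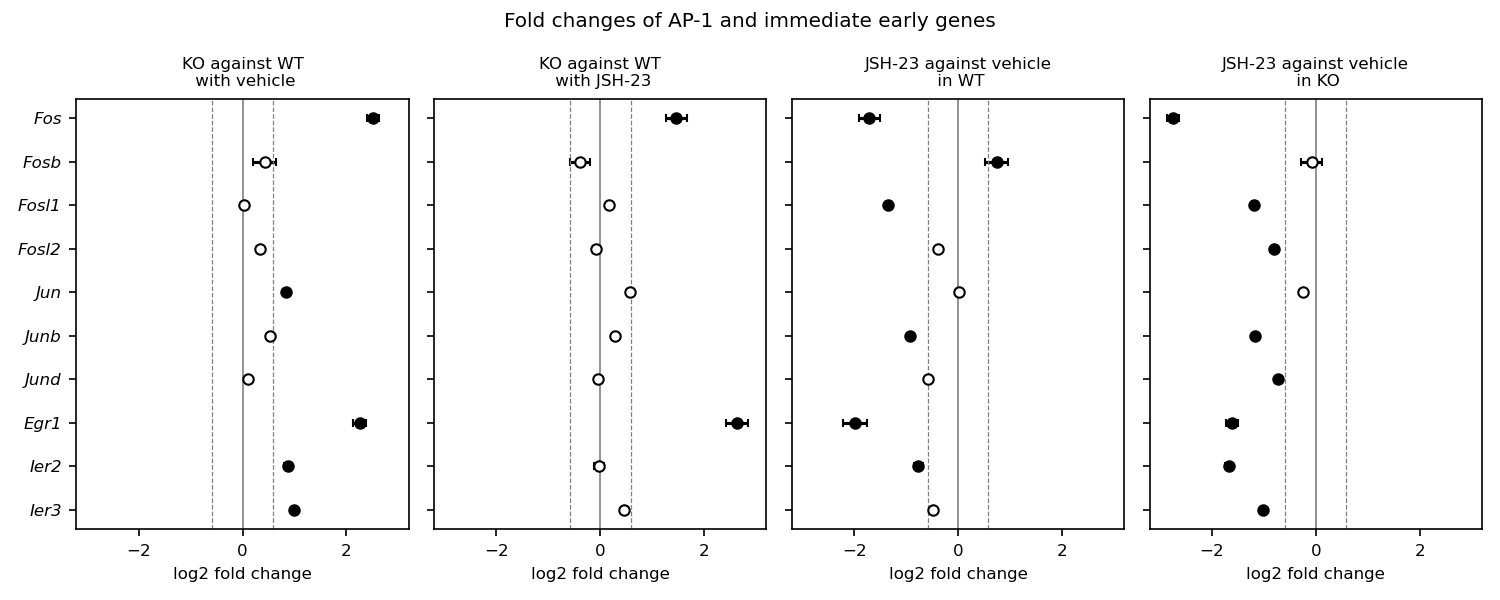
Points give the log2 fold change of each gene in 4 comparisons, with bars for the SE and dashed lines at 1.5-fold in either direction. Filled points passed the test and the fold threshold, and they lie to the right for 5 genes in KO against WT with vehicle and to the left for 8 genes in JSH-23 against vehicle in KO.

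*Egr1* encodes a zinc finger transcription factor induced through serum response factor alongside *Fos*. It had 4.93 and 5.47 CPM in WT vehicle, 23.3 and 26.3 CPM in KO vehicle, 0.893 and 1.76 CPM in WT JSH-23, and 8.86 and 7.48 CPM in KO JSH-23. The KO samples were above the WT samples under each treatment, and the WT JSH-23 samples, with 16 and 29 counts, were the lowest. *Egr1* was 4.77-fold higher in KO with vehicle (log2 2.25, SE 0.13, adjusted p = 2.78e-25) and 6.19-fold higher with JSH-23 (log2 2.63, SE 0.21, adjusted p = 5.77e-18). JSH-23 lowered it 3.05-fold in KO (log2 -1.61, SE 0.11, adjusted p = 5.39e-21) and 3.95-fold in WT (log2 -1.98, SE 0.23, adjusted p = 3.16e-11). *Egr1* was the only one of the 10 genes whose interaction did not reach an adjusted p under 0.05 (log2 0.37, SE 0.28, adjusted p = 0.297). The interaction turned to -0.05 without WT JSH-23 replicate 1 and to -0.30 with limma on log2(TPM + 1), and it was called at 0.92 without WT JSH-23 replicate 2.

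*Ier2* (chr8:84661331-84662852) encodes a nuclear protein of the rapid growth factor response. Its levels were 26.7 and 27.6 CPM in WT vehicle, 50.4 and 49.5 CPM in KO vehicle, 14.8 and 17.2 CPM in WT JSH-23, and 17.3 and 14.3 CPM in KO JSH-23. The genotypes were apart with vehicle and overlapped with JSH-23. *Ier2* was 1.84-fold higher in KO with vehicle (log2 0.88, SE 0.07, adjusted p = 4.42e-17). It fell with JSH-23 by 3.17-fold in KO (log2 -1.67, SE 0.08, adjusted p = 7.71e-30) and 1.70-fold in WT (log2 -0.76, SE 0.09, adjusted p = 3.84e-11), a difference of -0.90 (SE 0.12, adjusted p = 5.81e-09). With JSH-23 the genotypes differed by -0.02 on the log2 scale (SE 0.10, adjusted p = 0.896).

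*Ier3* (chr17:35821713-35822911), also known as IEX-1, encodes a regulator of survival that NF-κB and p53 induce. It had 156.4 and 156.5 CPM in WT vehicle, 314 and 306 CPM in KO vehicle, 112.0 and 111.6 CPM in WT JSH-23, and 149 and 156 CPM in KO JSH-23. KO vehicle stood above the other groups, and KO JSH-23 reached the edge of the WT vehicle samples. *Ier3* was 1.98-fold higher in KO with vehicle (log2 0.99, SE 0.03, adjusted p = 2.61e-41). It fell 2.03-fold with JSH-23 in KO (log2 -1.02, SE 0.03, adjusted p = 2.69e-43), and its log2 difference in WT was -0.48 (SE 0.03, adjusted p = 2.48e-20), under the threshold. The KO to WT log2 difference with JSH-23 was 0.45 (adjusted p = 3.98e-19), and the interaction was -0.54 (adjusted p = 1.13e-16).

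Set beside the WT vehicle control, KO JSH-23 samples lay lower for 7 of the 10 genes (*Fos*, *Fosl1*, *Fosl2*, *Junb*, *Jund*, *Ier2* and *Ier3*) and above them for *Jun* and *Egr1*, while *Fosb* overlapped. Over all tested genes, 40.3% lay lower without overlap in this way and 40.1% higher. This order of levels was not tested. The gap was small for *Ier3*, where the upper KO JSH-23 sample had 155.9 CPM and the lower WT vehicle sample 156.4 CPM.

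**Figure D4:**
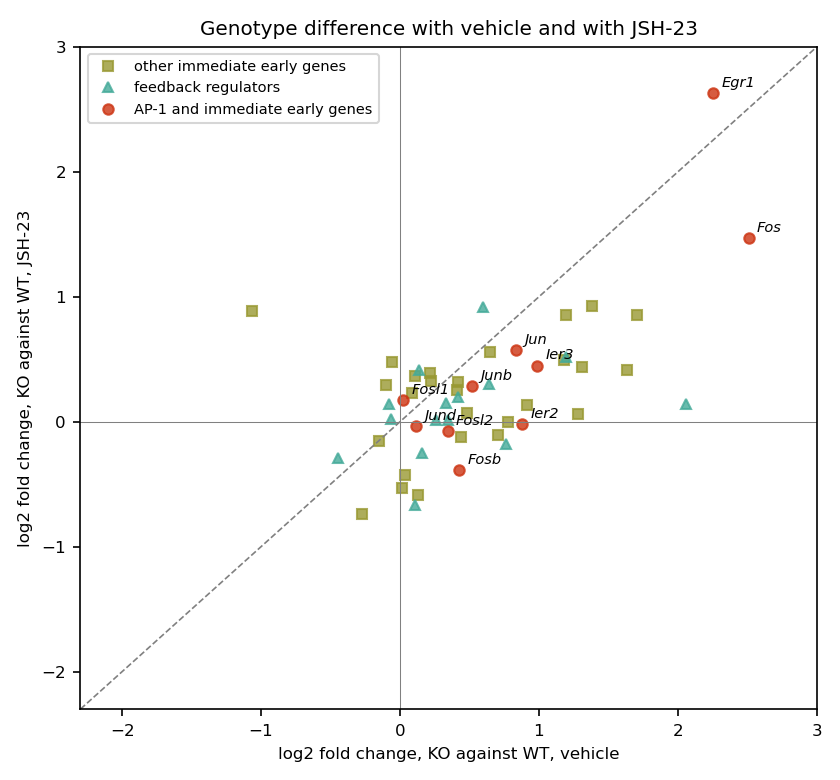
The x axis gives the log2 fold change of KO against WT with vehicle and the y axis that with JSH-23, from separate samples, for the 10 AP-1 and immediate early genes (red, named), 27 other immediate early genes and 15 feedback regulators. *Egr1* lies above the dashed line of equal differences, at 2.25 and 2.63, and *Fos* below it, at 2.51 and 1.47.

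The genotype difference with vehicle and that with JSH-23 share no sample. For 8 of the 10 genes the second value was the smaller, with an adjusted p under 0.05 for the interaction and a negative sign, and 3 of these (*Fos*, *Ier2* and *Fosb*) also passed 1.5-fold. On adjusted p alone, the interaction was lower for 2495 and higher for 2851 of the 13921 tested genes. *Ier2* went from 0.88 to -0.02 and *Ier3* from 0.99 to 0.45 on the log2 scale. With the stricter test of a change beyond 1.5-fold, edgeR called 0 of the 10 interactions. That test called few genes at all, 82 higher and 142 lower of the 13921. With the usual rule, DESeq2 called 2 of the 10 interactions and edgeR 3.

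Other genes of the pathway came from lists written for these comparisons, with earlier results of these data known. Background below is the share of all tested genes called in the same direction. Of 10 tested partners that dimerise with AP-1 proteins, 3 rose in KO tumors with vehicle and 0 fell (background 7.48% and 5.16%, median log2 0.15). They were *Atf3*, a stress-induced repressor (log2 1.60, SE 0.07), the small MAF gene *Maff* (0.73) and the JUN-binding repressor *Jdp2* (0.66). All 3 fell with JSH-23 in KO tumors, with log2 differences of -0.997, -0.73 and -0.77, and 2 of the 10 rose, among them *Mafk* (0.84). The background there was 16.9% lower and 9.1% higher.

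Of 27 other immediate early genes tested, 10 rose and 1 fell in KO tumors with vehicle (background 7.48% and 5.16%, median log2 0.42). With JSH-23 in KO tumors 1 rose and 14 fell (background 9.1% and 16.9%, median -0.64). In WT tumors 5 fell with JSH-23 and 0 rose (background 10.2% and 5.55%, median -0.15). *Myc* rose 1.70 on the log2 scale in KO with vehicle, from 16.5 and 17.2 CPM to 54.6 and 55.4 CPM, and whether transgene reads were counted as *Myc* was not tested. *Ppp1r15a*, which restores translation after stress, rose 1.63, the antiproliferative gene *Btg2* 1.38 and *Ptgs2*, which encodes the prostaglandin synthase COX-2, 1.31. With JSH-23 in KO tumors, the largest falls were those of *Egr2* (-1.98), *Btg2* (-1.65), *Myc* (-1.24) and *Klf4* (-1.04).

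Among 15 tested feedback regulators, 5 rose and 0 fell in KO tumors with vehicle (background 7.48% and 5.16%, median log2 0.33). *Dusp1*, a phosphatase that inactivates p38 and JNK and is itself an immediate early gene, had 22.6 and 24.4 CPM in WT vehicle, 96.1 and 100.3 CPM in KO vehicle, 16.2 and 16.7 CPM in WT JSH-23, and 17.1 and 19.3 CPM in KO JSH-23. The KO vehicle samples stood far above the other 6. *Dusp1* rose 2.06 on the log2 scale (SE 0.06, adjusted p = 3.43e-40) and fell by 2.44 with JSH-23 in KO (SE 0.06, adjusted p = 1.38e-44). *Dusp8* (1.20), *Zfp36l1* (0.76), which promotes decay of AU-rich mRNAs, and the ERK phosphatase *Dusp4* (0.64) also rose in KO. With JSH-23 in KO, 5 of the 15 fell and 0 rose (background 16.9% and 9.1%). Among those that fell were *Dusp2* (-1.22), *Spry4* (-0.97) and *Dusp6* (-0.76).

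Of 25 tested kinases and SRF factors that act upstream, 0 rose and 2 fell in KO with vehicle (background 7.48% and 5.16%, median log2 -0.03). The 2 were *Elk3*, a ternary complex factor (-1.41), and *Map2k6*, a p38 kinase kinase (-1.08). For the 0, edgeR's test counted 7 genes higher, and 10 lower, at an adjusted p under 0.05 without the fold threshold. *Elk3* and *Map2k6* were higher with JSH-23 in KO, by 0.71 and 1.56, and *Rps6ka5* was lower (-0.77), where the background was 9.1% higher and 16.9% lower.

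Of 26 textbook AP-1 target genes listed, 15 were tested, and 1 rose and 3 fell in KO with vehicle (background 7.48% and 5.16%, median log2 0.03). The cytokine gene *Lif* rose 0.83, while the metallothioneins *Mt1* (-0.996) and *Mt2* (-0.77) fell. With JSH-23 in KO tumors 2 rose and 4 fell (background 9.1% and 16.9%, median -0.13). The matrix protein gene *Spp1* rose 1.12, and *Lif* (-1.42), the cyclin gene *Ccnd1* (-1.05) and *Hmox1* (-0.93) fell.

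Heat-shock genes, which like immediate early genes can respond to tissue dissociation, were read beside them. Their 12 members summed to 7920 and 7947 TPM in WT vehicle, 6789 and 6832 TPM in KO vehicle, 8792 and 8847 TPM in WT JSH-23, and 8275 and 8295 TPM in KO JSH-23. The sum was lowest in KO vehicle, and the abundant genes *Hsp90ab1* and *Hspa8*, with means of 4136 and 1246 CPM, weigh most in it. With vehicle 0 of the 12 were called in either direction between KO and WT by edgeR (background 7.48% higher and 5.16% lower). At an adjusted p under 0.05 alone, 4 were higher and 4 lower. With JSH-23 in KO 3 rose (background 9.1%), *Hspa8* (1.00), *Hsp90ab1* (0.67) and *Hsph1* (0.60). Between KO and WT with JSH-23, where *Fos* and *Egr1* were called higher, 7 were higher and 2 lower at an adjusted p under 0.05 alone. With the fold threshold, 2 of the 12 were called higher and 0 lower (background 3.74% and 4.97%). They were the inducible HSP70 genes *Hspa1a* (0.82) and *Hspa1b* (0.84), named after their values were seen, near-identical genes that may exchange reads. With vehicle their log2 differences were 0.34 (adjusted p = 0.00983) and 0.31 (adjusted p = 1.79e-07). The part of dissociation in the values of *Fos* and *Egr1* was not tested.

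Markers of other cell types also differed between groups. The 13 leukocyte markers summed to 59.6 to 63.3 TPM in WT vehicle and 58.9 to 65.3 TPM in KO vehicle. They summed to 32.0 to 50.2 TPM in WT JSH-23 and 26.0 to 31.4 TPM in KO JSH-23. The sum was lower in the JSH-23 samples, as *Fos*, *Junb* and *Fosl1* were, and overlapped between the genotypes with vehicle. Of the 7 tested, *Cd68* (log2 1.32) was called higher and 5 lower in KO with vehicle, among them *Lyz2* (-1.59). The most abundant of the 7 were *Cd68*, *Cd14* and *Lyz2*, averaging 9.45, 8.93 and 5.95 CPM over the 8 samples. The next, *Csf1r*, averaged 0.525 CPM. The overlap of the sum with vehicle thus joins a rise of *Cd68* and a fall of *Lyz2*. Whether leukocyte content differed between the genotypes was not tested. Fibroblast markers summed to 10.8 to 15.0 TPM in KO JSH-23, below the 18.1 to 24.8 TPM of the other 6 samples, and *Pdgfra* was called lower with JSH-23 in KO (-0.67, adjusted p = 1.83e-17), where 8 of the 10 AP-1 and immediate early genes fell. The other 5 of the 6 fibroblast markers tested were not called there. *Pdgfra* averaged 52.5 CPM over the 8 samples, and the next of them, *Acta2*, 2.86 CPM. Endothelial markers summed to 0.577 to 1.48 TPM over the 8 samples. Epithelial markers summed to 152 to 168 TPM in WT vehicle, 354 to 360.2 TPM in KO vehicle, 77.1 to 78.1 TPM in WT JSH-23 and 253 to 262 TPM in KO JSH-23, with *Krt19* (log2 1.40) and *Krt8* (1.02) higher in KO with vehicle. The part of these differences in the immediate early gene values was not tested.

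*Fos* had the widest range of group means among the 10 genes, 3.89 on the log2 scale, followed by *Egr1* with 3.83, and *Fosb* had the narrowest, 0.69. Among 9186 other genes averaging 10 CPM or more, those most like *Fos* by Pearson's r of log2 CPM over the 8 samples were *Slc7a5* (0.998), *Seh1l* (0.997) and *Alox15* (0.996). As the 8 samples form 4 groups, such values are easily reached, and 249 genes had an r over 0.95. Within the set, *Fos* was closest to *Ier3* (0.997), *Fosl1* to *Jund* (0.981) and *Fosl2* to *Ier2* (0.983), while *Fosb* had a negative r with 8 of the other 9.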

How the data were processed

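RNA-seq of sorted Myc-CaP tumor cells was analysed for 8 samples, 2 in each of 4 groups taken from the sample labels. The authors deposited whole-number counts of reads per gene, made by strand with HTSeq on mm10. The paper's methods name TopHat2 as the aligner and the submitters' processing notes name HISAT2, so the aligner is uncertain. The authors also deposited TPM values, which divide each count by gene length and keep no depth.

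Genes were filtered with filterByExpr, which left 13921 of 39089, scaled with TMM factors between 0.949 and 1.03, and fitted with a mean per group over all samples by edgeR 4.0.16 (R 4.3.3). At 16401581 to 21972231 counts per sample, 3 counts corresponded to 0.137 to 0.183 CPM. The method was tested on simulated counts with a small spread set in advance, which does not bear on the spread between tumors. Counts of *Fosl1* rest on strand-specific counting, and genes of near-identical sequence may exchange reads.

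The members and gene lists were chosen with earlier results of these data known. All 10 members are named in every comparison, with up to 4 called genes per other list (largest change in KO against WT with vehicle or in JSH-23 against vehicle in KO, average of 1 CPM or more) and the 3 genes most like the member of widest range. Alternatives were DESeq2 1.42.0, limma 3.58.1 on TPM with a pseudocount of 1 or 0.1 before log2, library size only, other filters, call rules and spreads, the replicate block, only the groups compared, and leaving out each sample.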

Additional observations from a re-analysis of the deposited data

Results flagged for a closer look

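The response to JSH-23 differed between KO and WT tumors, by the interaction in edgeR at an adjusted p under 0.05, for 9 of the 10 genes. At this rule, 2851 of the 13921 tested genes were higher and 2495 lower, so such a difference was common among all genes. The log2 response in KO minus that in WT was -1.04 for *Fos* (adjusted p = 0.00077), -0.82 for *Fosb* (adjusted p = 0.023), -0.90 for *Ier2*, -0.54 for *Ier3*, -0.42 for *Fosl2*, -0.26 for *Jun*, -0.24 for *Junb* and -0.15 for *Jund*. It was 0.15 for *Fosl1*, which turned to -0.04 with limma on log2(TPM + 1). *Fos*, *Fosb* and *Ier2* passed 1.5-fold.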

How the results depend on the processing

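Of 840 values of single genes under the alternatives, 802 kept their direction and side of the threshold, 15 became called, 11 lost their call and 12 reversed. With adjusted p alone and no fold threshold, 8 genes were called in KO against WT with vehicle, 7 in the same with JSH-23 and 9 in the interaction. The test against 1.5-fold called 0 interactions with edgeR. With 1 sample left out, counts were 5 to 6 in KO against WT with vehicle, 2 to 3 with JSH-23, 8 for JSH-23 in KO, 5 to 7 for JSH-23 in WT, and 2 to 4 for the interaction. Reversed with limma on log2(TPM + 1) and log2(TPM + 0.1) were *Fosl1* in KO against WT with JSH-23 (-0.0139 and -0.0140), *Jun* with JSH-23 in WT (-0.0195 and -0.0197) and the *Fosl1* interaction (-0.0419 and -0.0421), and with the former the *Egr1* interaction (-0.301). Over the samples left out, 1 or more reversed *Ier2* in KO against WT with JSH-23 (range -0.151 to 0.133), *Fosb* with JSH-23 in KO (-0.375 to 0.189) and the *Egr1* interaction (-0.0466 to 0.924). The cause was not tested.

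Scaling moved all genes. The median log2 difference over all genes for JSH-23 in KO was -0.02 with TMM, -0.13 with library size only and -0.20 with log2(TPM + 1), and higher genes made up 35%, 22.5% and 12.8% of calls. For KO against WT with JSH-23 the medians were -0.01, -0.09 and -0.16 and the shares 42.9%, 29.6% and 15.9%, and for the interaction 0.00, -0.11 and -0.17 and 36.5%, 18.8% and 10.6%. The replicate numbers were shared but did not pair the samples (correlations of deviations between -0.09 and 0.04), and with the replicate block 5, 2, 8, 6 and 3 genes were called, as without it. Counts were lowest for *Egr1* (16 and 29 in WT JSH-23), *Fos* (28 to 118 with JSH-23) and *Fosb* (39 to 98), which have the largest SEs.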
